A study of Mus musculus with 6 samples.

Results

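The 10 genes described here mark the stem cell end of mouse hematopoiesis by presence or absence, several being shared with blood vessel cells. They are Slamf1, Cd48, Cd34, Procr, Esam, Ctnnal1, Tek, Angpt1, Fgd5 and Pdzk1ip1, followed across sorted bone marrow fractions. They were chosen by name, through the probe sets annotated to each symbol alone, and all 10 were measured, out of 18194 genes tested. Each gene is represented by its probe set with the highest mean over the arrays, and 4 of the genes have 5 other probe sets, all of which are given. Not all of them encode cell surface proteins: Angpt1 is secreted, and Fgd5 and Ctnnal1 act inside the cell. For CD48 it is absence, and for CD34 a low level, that marks stem cells.

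RNA was measured on 6 Affymetrix arrays in 3 groups of 2, from bone marrow of adult C57bl/6 mice. The cells of every group were negative for lineage markers and positive for SCA1 and KIT, the gate called LSK. WT LSK FLT3- cells were wild type and without surface FLT3, the fraction that holds the hematopoietic stem cells. WT LMPP and E2A-KO LMPP cells had high surface FLT3, the fraction known as lymphoid-primed multipotent progenitors, from wild-type mice and from mice without E2A, the E protein transcription factors made from Tcf3. The labels give neither the allele of the knockout nor the number of mice behind an array, and no sample is knockout LSK FLT3-, so genotype was compared in LMPP alone. Whether the 2 arrays of a group stand for different animals is not said, so p-values here reflect array-to-array spread, which may be technical.

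Values are log2 of the deposited intensities, called levels below, and a change is a difference of mean levels. The median over all probe sets was 3.90 to 4.04 on the 6 arrays; levels near or under it lie in the low range of the array. The LSK FLT3- arrays had a wider spread of levels, with upper quartiles of 6.13 and 6.15 against 5.78 to 5.82 on the LMPP arrays. All tests are from limma, with p-values adjusted by Benjamini-Hochberg over the 18194 genes and a threshold of 0.05; SE is the standard error of a change, and intervals are 95% intervals. Flt3 itself was at 8.87 and 8.76 on the LSK FLT3- arrays and between 10.70 and 10.81 on the 4 LMPP arrays, the order the sort defines. Kit lay between 8.47 and 10.38 on all 6 and fell by 1.24 from WT LSK FLT3- to WT LMPP (adjusted p = 0.00124); Ly6a, which encodes SCA1, was not analysed here. Tcf3 averaged 6.90 ± 0.05 (SD, n = 2) in WT LMPP against 6.66 ± 0.19 in the knockout, a difference that did not pass (adjusted p = 0.50). The sources used here do not place its probe set relative to the deleted part, so it does not check the labels.

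As background, adult mouse stem cells are sorted by combining surface proteins rather than by any single one. SLAMF1 (CD150) present with CD48 absent, little CD34, and the presence of PROCR, ESAM and the receptor tyrosine kinase TIE2 (Tek) are all in use, and reporter mice built on Fgd5, Ctnnal1 and Pdzk1ip1 label the same compartment. Blood and vessel lining arise from related cells in the embryo, and many of these genes were first known from endothelium. E proteins such as E2A bind short DNA sites of the form CANNTG, called E-boxes.

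The upstream sequences of 5 members are shown because their levels set the pattern below: Tek, Pdzk1ip1 and Procr, whose RNA fell steeply at the LMPP stage, Cd34, which went the other way, and Cd48, which differed between the LMPP genotypes. Each is the 250 bases before the transcription start (RefSeq, GRCm38.p6), 5′ to 3′ on the strand of the gene, with every CANNTG in capitals. Tek lies at chr4:94739039-94739288 (+), Pdzk1ip1 at chr4:115088458-115088707 (+), Procr at chr2:155750967-155751216 (+), Cd34 at chr1:194938571-194938820 (+) and Cd48 at chr1:171681742-171681991 (+).
Tek: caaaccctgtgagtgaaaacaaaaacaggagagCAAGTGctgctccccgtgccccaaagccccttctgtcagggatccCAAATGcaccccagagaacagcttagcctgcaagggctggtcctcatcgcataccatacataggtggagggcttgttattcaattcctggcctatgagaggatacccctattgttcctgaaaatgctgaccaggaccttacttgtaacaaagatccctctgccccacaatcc
Pdzk1ip1: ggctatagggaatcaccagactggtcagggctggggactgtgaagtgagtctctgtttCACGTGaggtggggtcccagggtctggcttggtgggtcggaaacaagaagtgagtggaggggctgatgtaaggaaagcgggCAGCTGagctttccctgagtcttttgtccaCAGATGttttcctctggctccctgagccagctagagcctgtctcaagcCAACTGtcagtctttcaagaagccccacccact
Procr: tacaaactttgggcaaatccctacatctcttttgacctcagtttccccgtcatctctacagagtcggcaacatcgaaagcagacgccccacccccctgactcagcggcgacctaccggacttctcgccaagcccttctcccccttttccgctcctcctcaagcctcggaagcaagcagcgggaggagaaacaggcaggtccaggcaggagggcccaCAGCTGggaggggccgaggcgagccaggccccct
Cd34: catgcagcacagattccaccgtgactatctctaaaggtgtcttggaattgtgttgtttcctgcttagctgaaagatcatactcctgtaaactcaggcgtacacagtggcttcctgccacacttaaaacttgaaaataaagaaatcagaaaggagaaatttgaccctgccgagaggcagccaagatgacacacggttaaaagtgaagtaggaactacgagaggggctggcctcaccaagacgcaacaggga
Cd48: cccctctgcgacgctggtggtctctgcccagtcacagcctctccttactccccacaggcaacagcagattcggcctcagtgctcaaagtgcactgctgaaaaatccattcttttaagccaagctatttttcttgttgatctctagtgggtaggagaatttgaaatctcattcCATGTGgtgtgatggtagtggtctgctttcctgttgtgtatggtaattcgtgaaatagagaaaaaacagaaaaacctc
Of the 10 members, 8 matched a sequence, the exceptions being Esam and Angpt1. CANNTG, which reads the same form on both strands, occurred in 5 of the 8 windows, and 66.2% of the 32851 windows of this length in the table hold one. Pdzk1ip1 had 4 copies, Tek 2, and Procr, Cd48 and Slamf1 had 1 each, while Cd34, Fgd5 and Ctnnal1 had none. The variant CAGCTG, a subset of CANNTG, stood 34 bases before the start in Procr and 111 bases before it in Pdzk1ip1, against 13.0% of all windows, and CAGGTG on either strand only in Slamf1 (17.2%). GGAA, the core of ETS factor sites, was in 7 of 8 windows on either strand (93.4% of all), and the GATA factor site AGATAA was in none (9.99%). These matches describe letters in short windows and show no binding.

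Between the wild-type fractions, which the study includes as the step from the FLT3-negative to the FLT3-high stage, 9 of the 10 markers fell and Cd34 rose. Falls past the threshold made up 23.7% of all genes tested and rises 10.4%, together 34.1%. The falls ran from 1.34-fold for Cd48 to 8.07-fold for Tek, and 7 of them exceeded 2-fold. The folds of Tek, Slamf1 and Ctnnal1 are as measured, since their WT LMPP values lay under the array median. Rises were 30.5% of all calls, 47.4% after quantile normalization and 17.8% with arrays centred on their medians, a scaling that put the median change of all genes at -0.12. In each of the 10 genes the WT LSK FLT3- arrays and the WT LMPP arrays did not overlap, as in 39.3% of all genes in the downward and 32.4% in the upward direction. The median change was -1.86 (log2) over the members and -0.01 over all genes. Without the dimmest 40% of genes, a filter that removed Tek and Slamf1, the median over the genes kept was -0.29. In sorted populations of this kind, fewer cells carrying a transcript and less transcript per cell cannot be told apart.

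**Figure D1:**
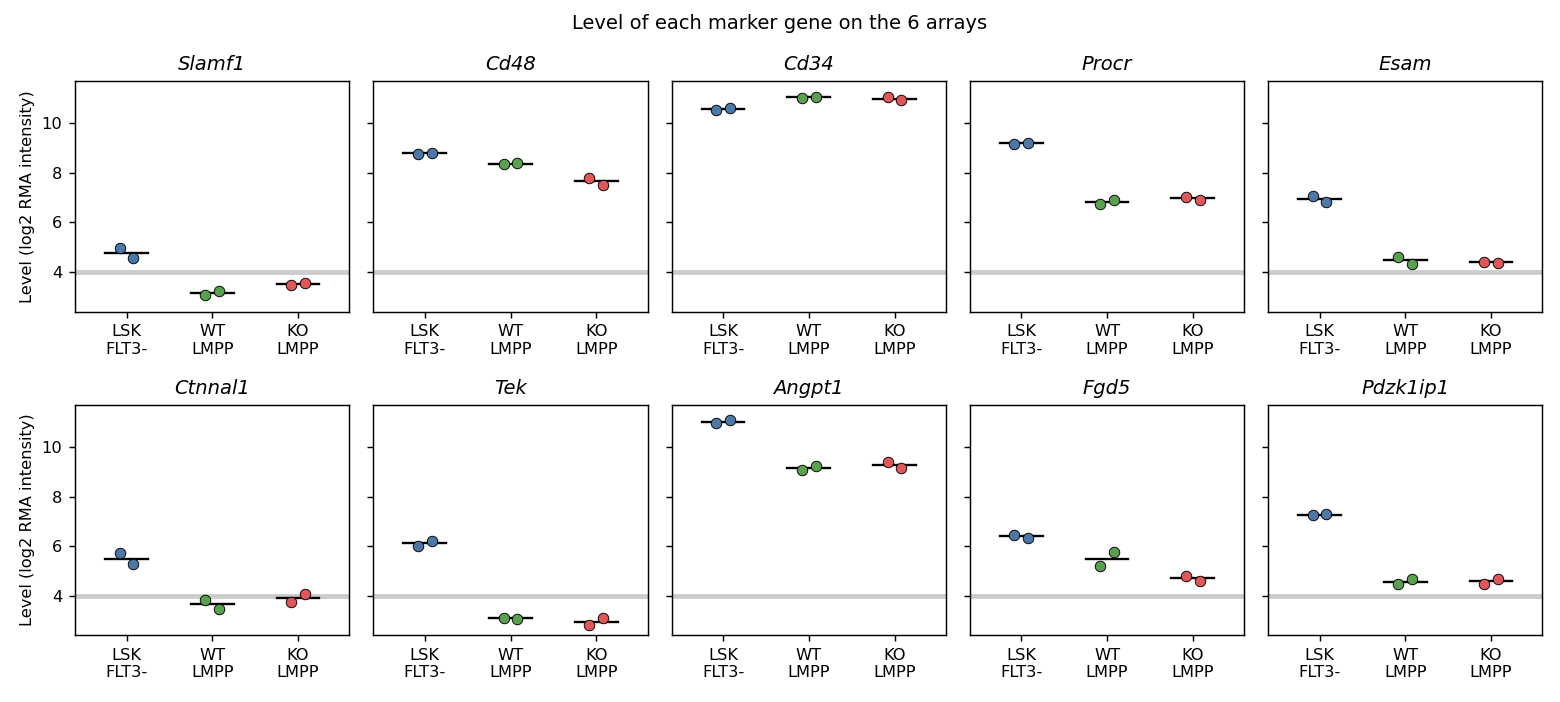
Level (log2 RMA intensity, y axis) of each marker gene on the 2 arrays of WT LSK FLT3- (blue), WT LMPP (green) and E2A-KO LMPP (red); points are arrays, black bars are group means, and the grey band spans the 6 array medians, 3.90 to 4.04. In 9 panels the blue points lie above all others, in the Cd34 panel they lie below, and the Cd48 and Fgd5 panels step down again from green to red.

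Slamf1 and Cd48 are members of one family of immune receptors, neighbours on chromosome 1, and are used in opposite senses to sort stem cells. Slamf1, a receptor that binds itself on adjoining cells, was at 4.98 and 4.56 in WT LSK FLT3-, at 3.08 and 3.25 in WT LMPP and, in the knockout LMPP, at 3.47 and 3.57. It fell by 1.61 toward WT LMPP (SE 0.16, adjusted p = 0.000291), or 3.05-fold, and the 4 LMPP arrays all lay under the array median. With the mean of its 3 probe sets the change was -0.70 (adjusted p = 0.00593). Cd48, a lipid-anchored ligand of CD244 and CD2 found on most blood cells, was at 8.77 and 8.81 in WT LSK FLT3- and at 8.35 and 8.38 in WT LMPP. Its RNA thus stood no lower in the fraction that holds the stem cells: it fell by 0.42 toward WT LMPP (SE 0.14, adjusted p = 0.0448). That call was close to the threshold. After quantile normalization of the 6 arrays the change was -0.10 (adjusted p = 0.66), with every probe set tested as its own unit the adjusted p was 0.0657, and leaving out any 1 of the 4 wild-type arrays gave adjusted p 0.0862 (WT LMPP replicate 2), 0.112 (WT LMPP replicate 1), 0.172 (LSK FLT3- replicate 1) and 0.203 (LSK FLT3- replicate 2).

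Cd34, a sialomucin of stem and progenitor cells and of vessel lining, was the only member higher in LMPP. It was at 10.53 and 10.62 in WT LSK FLT3-, at 11.02 and 11.06 in WT LMPP and, in the knockout LMPP, at 11.05 and 10.92. The rise of 0.46 (SE 0.13, adjusted p = 0.0242), or 1.38-fold, was small beside the falls of the other markers, and the RNA was well above the array median in every group. It lost its call when arrays were centred on their medians (0.36, adjusted p = 0.0594) and without any 1 of the 4 wild-type arrays (adjusted p 0.053 without WT LMPP replicate 1, 0.0636 without WT LMPP replicate 2, 0.16 and 0.106 without LSK FLT3- replicates 1 and 2).

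Procr and Esam, both known from endothelium, had steep falls. Procr, the endothelial receptor for protein C, was at 9.18 and 9.20 in WT LSK FLT3- and at 6.76 and 6.92 in WT LMPP, and fell by 2.35 (SE 0.13, adjusted p = 1.4e-05) or 5.09-fold. Its level in LMPP remained far above the array median. Esam, an immunoglobulin-type adhesion molecule of endothelial junctions, went from 7.05 and 6.84 to 4.61 and 4.32 and so fell by 2.48 (SE 0.15, adjusted p = 1.96e-05). Ctnnal1 (alpha-catulin), a cytoplasmic relative of vinculin and alpha-catenin, went from 5.71 and 5.28 to 3.83 and 3.46, under the array median, and so fell by 1.85 (SE 0.20, adjusted p = 0.000381); with the mean of its 2 probe sets the change was -0.83 (adjusted p = 0.00308).

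Tek and Angpt1 encode a receptor and its activating ligand, and both fell. Tek was at 6.00 and 6.21 in WT LSK FLT3- and at 3.12 and 3.07 in WT LMPP, and fell by 3.01 (SE 0.15, adjusted p = 6.68e-06). The 4 LMPP arrays lay under the array median. Angpt1 was at 10.94 and 11.10 in WT LSK FLT3- and at 9.07 and 9.21 in WT LMPP, and fell by 1.88 (SE 0.15, adjusted p = 7.54e-05) or 3.68-fold. All 6 arrays stayed far above the array median.

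Fgd5 and Pdzk1ip1 are used as reporters of stem cells. Pdzk1ip1, a small membrane protein that binds the scaffold PDZK1, was at 7.27 and 7.28 in WT LSK FLT3- and at 4.48 and 4.67 in WT LMPP. It fell by 2.70 (SE 0.14, adjusted p = 7.96e-06), or 6.50-fold, the second largest change among the members. Fgd5, an exchange factor that activates the small GTPase CDC42, fell less, from 6.45 and 6.34 to 5.18 and 5.77 (change -0.92, SE 0.19, adjusted p = 0.00751). Its WT LMPP arrays were the most spread of any member in any group (SD 0.42), and the call was lost after quantile normalization (-0.59, adjusted p = 0.0767) and without LSK FLT3- replicate 1 (adjusted p = 0.0699).

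**Figure D2:**
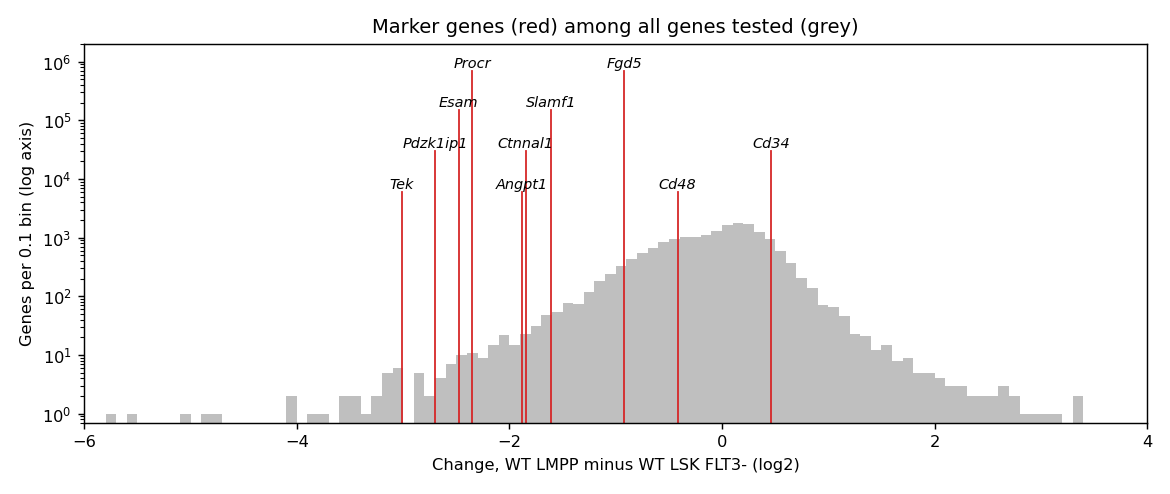
Number of genes (log axis) by change between WT LSK FLT3- and WT LMPP (log2, bins of 0.1) for all 18194 genes in grey, with the marker genes as red lines. Tek, Pdzk1ip1, Esam and Procr sit in the far lower tail at -3.01 to -2.35, whereas Cd48 at -0.42 and Cd34 at 0.46 sit in the body of the distribution.

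The other probe sets did not all repeat these changes. Of the 5, tested with every probe set as a unit and adjustment over all 45101, 3 fell: Slamf1 1425571_at, under the median on 5 of 6 arrays, by 0.60 (SE 0.17, adjusted p = 0.0296), Angpt1 1421441_at by 0.89 (SE 0.19, adjusted p = 0.00946) and Pdzk1ip1 1417689_a_at by 1.74 (SE 0.20, adjusted p = 0.000645). In each of these genes the fall was smaller than on the brighter probe set. Slamf1 1425569_a_at, at 2.92 to 3.26 on all arrays, and Ctnnal1 1420929_at, at 3.35 to 3.71, lay under the median of every array and did not pass (changes 0.12 and 0.19, adjusted p 0.58 and 0.34). The statements on Ctnnal1 therefore rest on 1420930_s_at alone, and those on Slamf1 mainly on 1425570_at. Tek (1418788_at), Esam (1460356_at), Procr (1420664_s_at), Cd34 (1416072_at), Cd48 (1427301_at) and Fgd5 (1460578_at) each had 1 probe set.

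**Figure D3:**
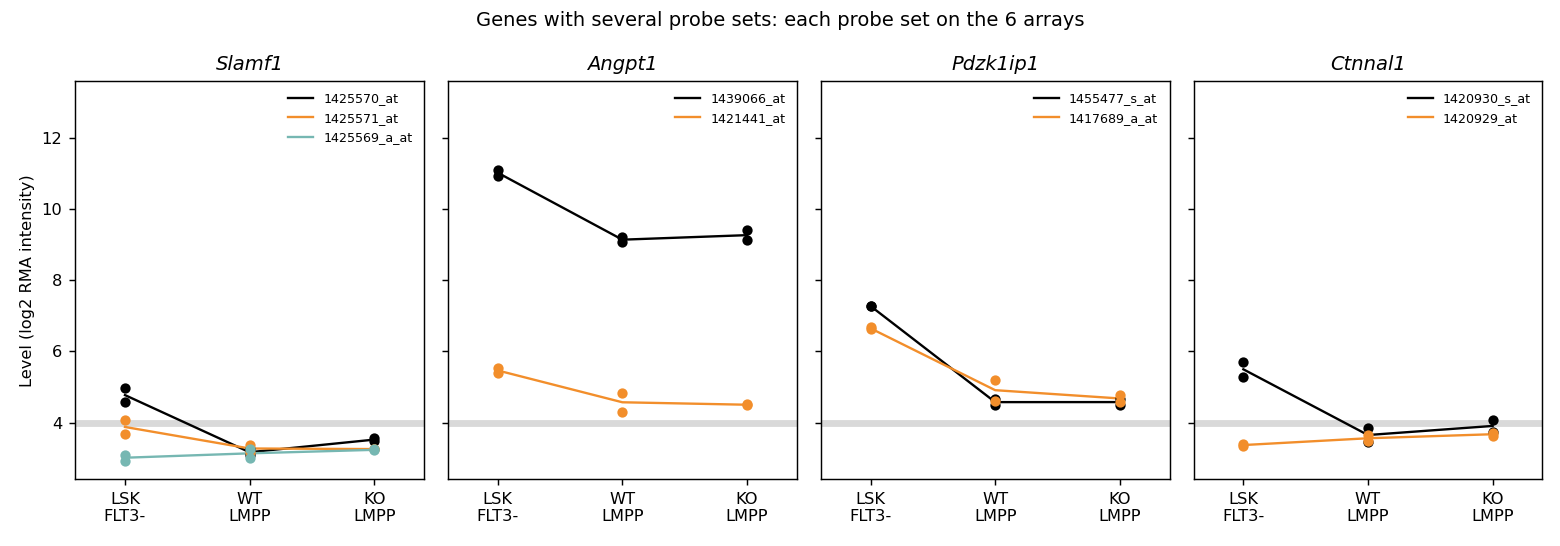
Level (log2 RMA intensity, y axis) of every probe set of the 4 genes with several, by group; points are arrays, lines join group means, black is the brightest probe set, and the grey band spans the array medians. The second Pdzk1ip1 and Angpt1 probe sets fall with the first, while the lower Ctnnal1 probe set and 1 of the Slamf1 probe sets stay flat in the low range.

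The stated aim of the experiment was to find changes between wild-type and knockout LMPP. Cd48 alone passed among the 10 markers, falling 1.65-fold in E2A-KO LMPP, whereas the other 9, including Tek, Esam, Procr and Pdzk1ip1, did not pass in either direction. Falls past the threshold made up 0.995% of all genes and rises 0.379%, together 1.37%. The median change was -0.03 (log2) over the members and -0.02 over all genes. At an unadjusted p under 0.05 there were 2 members, Cd48 and Fgd5, both lower, near the share of all genes at that level (14.6%, with 8.76% lower and 5.89% higher).

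Cd48 was at 8.35 and 8.38 in WT LMPP and, in the knockout LMPP, at 7.78 and 7.52, with no overlap, a change of -0.72 (SE 0.14, 95% interval -1.03 to -0.40, adjusted p = 0.0462). It is the member whose levels descended in order from WT LSK FLT3- through WT LMPP to E2A-KO LMPP with each step past the threshold, although both calls were narrow. The change stayed negative under all alternatives run, but it lost its call after quantile normalization (adjusted p = 0.0723), with every probe set as a unit (0.062) and on the 4 LMPP arrays alone (0.156). Leaving out any 1 of the 4 LMPP arrays also ended the call, and over all alternatives the change ran from -0.85 to -0.59. Leaving out either LSK FLT3- array repeats the fit on the 4 LMPP arrays alone, because the 1 array left adds nothing to the spread.

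Fgd5 was at 5.18 and 5.77 in WT LMPP and, in the knockout LMPP, at 4.79 and 4.61. The arrays did not overlap, and the change of -0.77 (SE 0.19, 95% interval -1.21 to -0.33) was of the size seen for Cd48, but it did not pass over all genes (adjusted p = 0.108). Without WT LMPP replicate 1, the lower of that spread pair, the change was -1.06 and passed (adjusted p = 0.0325), and without WT LMPP replicate 2 it was -0.48 (adjusted p = 0.221). Slamf1 was the third member without overlap, at 3.47 and 3.57 in E2A-KO LMPP against 3.08 and 3.25 in WT LMPP, all in the low range (0.35, 95% interval -0.02 to 0.73, adjusted p = 0.36). Non-overlapping arrays were common in this comparison: 22.8% of all genes were lower and 18.8% higher in the knockout without overlap, so 2 lower and 1 higher among 10 is near that background.

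For the remaining members the intervals limit what a difference in measured level could be. Those of 8 of the 10 members lay within 2-fold in either direction, the exceptions being Cd48 and Fgd5. The 8 include Slamf1, Tek and Ctnnal1, whose WT LMPP values lay under the array median, so their intervals hold for the levels as measured. Procr was at 7.03 and 6.91 in E2A-KO LMPP (change 0.14, interval -0.16 to 0.43), and Angpt1 at 9.40 and 9.13 (0.13, interval -0.21 to 0.46). Esam was at 4.42 and 4.35 (-0.08, interval -0.42 to 0.26), and Pdzk1ip1 at 4.48 and 4.66 (0.00, interval -0.31 to 0.31). Cd34 differed by -0.05 (interval -0.34 to 0.24). The low levels of Tek (2.83 and 3.09) and Ctnnal1 (3.73 and 4.07) in E2A-KO LMPP leave little room to see a further fall, and their intervals were -0.47 to 0.20 and -0.20 to 0.71. None of the 5 other probe sets passed (adjusted p 0.67 to 0.98).

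**Figure D4:**
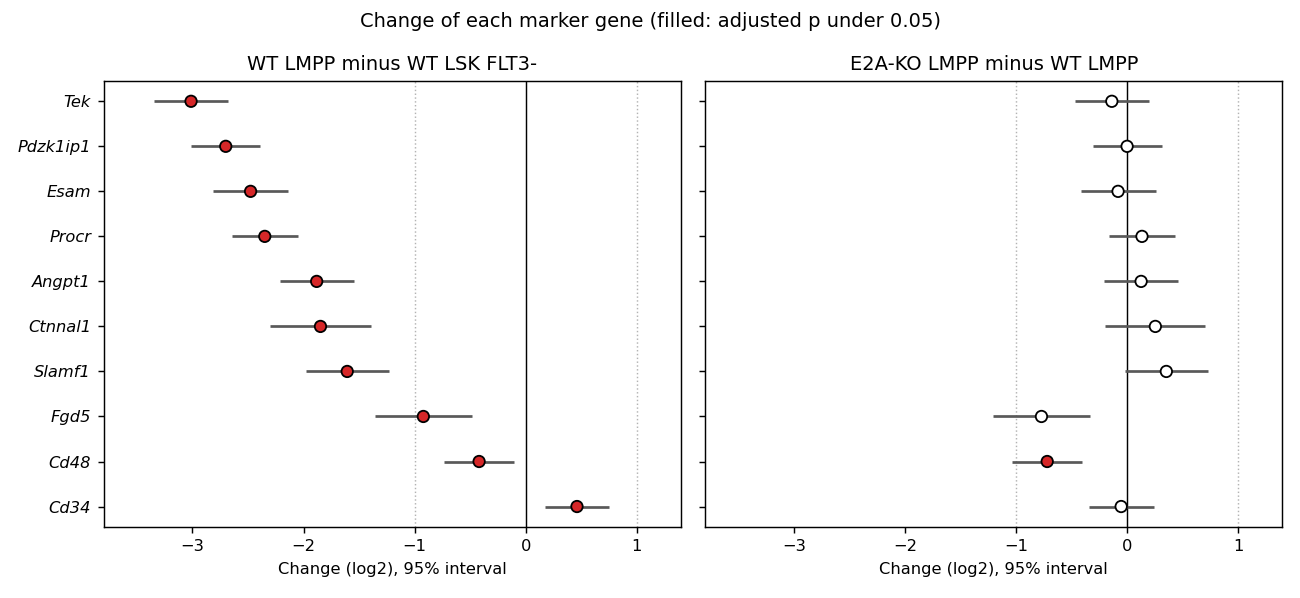
Change of each marker gene (log2, points) with its 95% interval (bars) between the wild-type fractions (left) and between LMPP genotypes (right); filled points have an adjusted p under 0.05, and dotted lines mark 2-fold. On the left all points are filled and 9 lie below 0; on the right only Cd48 is filled, and Fgd5 beside it also has an interval that excludes 0.

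Set against WT LSK FLT3- directly, E2A-KO LMPP showed the same markers lower, 9 of 10, and Cd34 higher, where 26.5% of all genes were lower and 11.0% higher, together 37.5%. All 10 members had arrays that did not overlap, as had 41.1% of all genes downward and 32.9% upward. Rises were 29.3% of all calls, 44.0% after quantile normalization and 14.6% with median centring. The median change was -1.72 over the members and -0.02 over all genes, or -0.33 over the genes kept without the dimmest 40%. This comparison shares arrays with both others and is no separate evidence. For Tek the change was -3.15 in the knockout beside -3.01 in the wild type, for Pdzk1ip1 -2.70 beside -2.70, for Esam -2.56 beside -2.48, and for Procr -2.21 beside -2.35. The largest gaps between these 2 changes were those of Cd48, at -1.14 (SE 0.14, adjusted p = 0.000569) beside -0.42, and Fgd5, at -1.69 (SE 0.19, adjusted p = 0.000421) beside -0.92. Of these 2 only the difference for Cd48 passed, as given above. Cd34 stood 0.41 above WT LSK FLT3- (adjusted p = 0.0346) and lost that call with median centring (0.27, adjusted p = 0.128), with every probe set as a unit (adjusted p = 0.051) and with 1 array left out (0.133 for E2A-KO LMPP replicate 1, 0.196 and 0.126 for LSK FLT3- replicates 1 and 2).

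Genes that work with the markers did not move as one group. Their lists were set by role, and list medians below stand beside -0.01 (log2) over all genes between the wild-type fractions and -0.02 between the LMPP genotypes. Counts of calls in the lists stand beside 23.7% of all genes lower and 10.4% higher between the wild-type fractions. Between the LMPP genotypes these shares were 0.995% lower and 0.379% higher. Around Tek and Angpt1, 3 of 15 genes of angiopoietin, Tie and VEGF signalling, all measured, fell between the wild-type fractions and 2 rose (median 0.09). Tie1, the partner receptor of TIE2, was at 5.33 and 5.07 in WT LSK FLT3- and at 3.68 and 3.72 in WT LMPP (change -1.49, SE 0.18, adjusted p = 0.000646). Vegfc, a growth factor of lymphatic vessels, went from 7.69 and 7.52 to 5.29 and 5.77 (-2.07, SE 0.17) and on to 4.41 and 4.34 in E2A-KO LMPP. Vegfc was the only gene of this list to change in the knockout (-1.15, SE 0.17, adjusted p = 0.0155). That call was lost with the mean of its probe sets (adjusted p = 0.269, the highest of 13 alternatives). It was also lost without either E2A-KO LMPP array and on the 4 LMPP arrays alone, a fit that leaving out 1 LSK FLT3- array repeats. Vegfb fell by 0.68, a call lost after quantile normalization and without LSK FLT3- replicate 2. The VEGF receptors Kdr, Flt1 and Flt4 did not pass in either comparison.

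The Slamf1 and Cd48 relatives moved in both directions. Of 9 measured genes of the SLAM family with its ligands and adaptors, 2 rose and 1 fell toward WT LMPP (median 0.26). Slamf7, which lies next to Cd48 on chromosome 1, rose by 1.20 (SE 0.23, adjusted p = 0.00524), and Cd84, which follows Slamf1, fell by 0.77 (SE 0.16, adjusted p = 0.00769), so 4 consecutive measured genes of this cluster, in the order Slamf7, Cd48, Slamf1 and Cd84, included 1 that rose and 3 that fell. Slamf7 and Slamf8, which rose by 1.05, lay between 2.92 and 4.67 on all arrays, and each lost its call without 1 LSK FLT3- array (replicate 1 for Slamf7, adjusted p = 0.0584; replicate 2 for Slamf8, 0.0511). Cd84 lost it without either LSK FLT3- array, with the mean of its probe sets and after quantile normalization. In the knockout 0 of 9 passed, also at an unadjusted p under 0.05, and the largest difference was in Cd244a, the receptor for CD48 (0.45, SE 0.31, adjusted p = 0.56). Its WT LMPP arrays stood apart, at 6.15 and 7.34, and the knockout arrays, at 7.23 and 7.15, lay between them, so the value rests on WT LMPP replicate 1.

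Of 8 measured genes of the protein C system, to which Procr belongs, 4 fell and 1 rose (median -0.18); falls also outnumbered rises over all genes, at 23.7% against 10.4%. F2r, the thrombin receptor that activated protein C also cleaves, was at 10.94 and 10.85 in WT LSK FLT3- and at 9.18 and 9.10 in WT LMPP (-1.76, SE 0.13, adjusted p = 4.69e-05). Tfpi, an inhibitor of the tissue factor pathway, fell by 1.29 and Pros1, the cofactor protein S, by 0.84. Thbd, thrombomodulin, did not differ past the threshold between the wild-type fractions (0.11) and fell in E2A-KO LMPP, from 4.89 and 4.96 to 4.09 and 3.97 (-0.89, SE 0.13, adjusted p = 0.0131). Its call was lost on the 4 LMPP arrays alone, a fit that leaving out 1 LSK FLT3- array repeats. The call was also lost without any 1 LMPP array other than WT LMPP replicate 1.

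Among junction relatives of Esam and Ctnnal1, 6 of 13 fell and 2 rose toward WT LMPP (median -0.34). The scaffold gene Tjp1 (ZO-1) fell by 3.03 (SE 0.14, adjusted p = 6.67e-06), from 6.82 and 6.58 to 3.72 and 3.61, close in size to Tek. Ctnnd1 (p120-catenin) fell by 1.18 and the adhesion receptor Cxadr rose by 1.13. In the knockout 0 passed (3 of 13 at an unadjusted p under 0.05, all lower, where 8.76% of all genes were), with Ctnnd1 the largest at -0.60 (adjusted p = 0.101).

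Of the CD34 relatives and selectins, 3 of 7 fell and none rose toward WT LMPP (median -0.30), whereas Cd34 rose. Selp, P-selectin, fell from 6.55 and 6.33 to 3.90 and 3.90 (-2.54, SE 0.19, adjusted p = 5.88e-05) and was at 4.46 and 5.03 in E2A-KO LMPP, a difference that did not pass (0.84, SE 0.19, adjusted p = 0.0766). The sialomucins Cd164 and Spn fell by 0.41 and 0.38. Both calls were lost with the mean of all probe sets, after quantile normalization and without any 1 of the 4 wild-type arrays. That of Spn held under only 3 of 13 alternatives and was also lost on the 4 wild-type arrays alone. In the knockout 0 of 7 passed, and 1 at an unadjusted p under 0.05.

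In the Fgd family with Cdc42 and its partners, 2 of 9 fell and 2 rose toward WT LMPP (median -0.19). Fgd4 fell by 1.17, losing its call after quantile normalization and without WT LMPP replicate 1 or either LSK FLT3- array, whereas Fgd2 rose by 0.89 (SE 0.15, adjusted p = 0.00329). Fgd6 rose by 0.71 in the low range, a call lost after quantile normalization and without any 1 of the wild-type arrays except LSK FLT3- replicate 2. In the knockout 0 of 9 passed, none of them at an unadjusted p under 0.05, and Fgd2 differed most (-0.27, adjusted p = 0.47).

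Other surface markers of the stem cell fraction fell in 8 of 13 cases and rose in 1, with a median of -0.85. Over all genes 23.7% fell and 10.4% rose. Itga2b (CD41) fell by 2.82 (SE 0.16, adjusted p = 1.48e-05), and the tetraspanin gene Cd9 (-2.20) and Art4 (-1.57) fell as well. In E2A-KO LMPP 1 of the 13 fell and 1 rose, beside 0.995% and 0.379% of all genes. Adgrg1, an adhesion receptor also called GPR56, was at 9.11 and 9.02 in WT LMPP and, in the knockout, at 8.33 and 8.34 (-0.73, SE 0.13, adjusted p = 0.0311), nearly the change of Cd48. Thy1 went the other way, from 4.91 and 4.61 to 5.57 and 5.99 (1.02, SE 0.19, adjusted p = 0.041). Removing any 1 of the 4 LMPP arrays ended both calls, and so did the fit on the 4 LMPP arrays alone. Removing 1 LSK FLT3- array repeats the latter fit. The call of Adgrg1 was also lost after quantile normalization. Between the genotypes the medians of the 7 lists ran from -0.18 for the protein C system to -0.03 for the CD34 relatives.

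**Figure D5:**
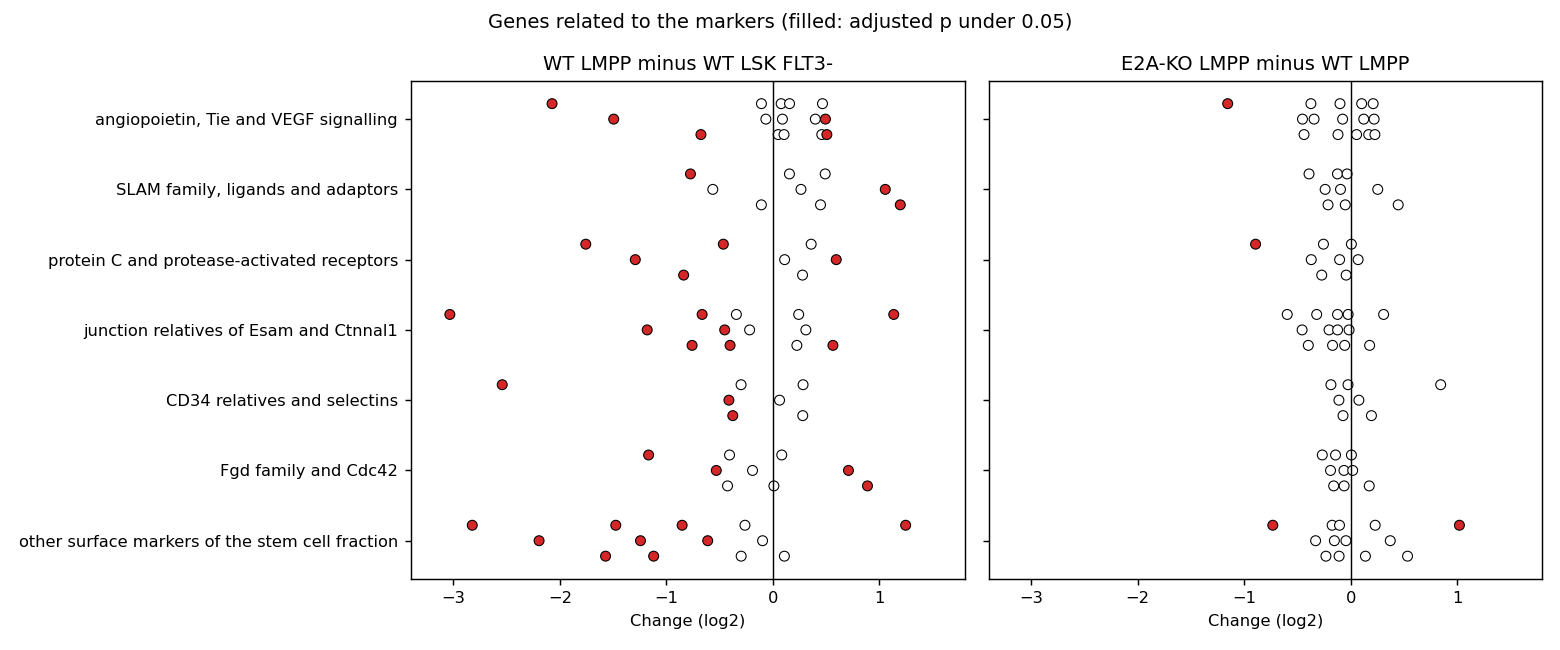
Change (log2, x axis) of each measured gene in 7 lists related to the markers, between the wild-type fractions (left) and between LMPP genotypes (right); each point is a gene, filled where the adjusted p is under 0.05. Filled points lie on both sides of 0 in most lists on the left, with Tjp1 (-3.03), Itga2b (-2.82) and Selp (-2.54) farthest down, and on the right only Vegfc, Thbd, Adgrg1 and Thy1 are filled.

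Since many markers are shared with endothelium, genes that define endothelial cells were examined beside them. Of 21 measured, 2 fell and 2 rose between the wild-type fractions, where 23.7% of all genes fell and 10.4% rose. The summed intensity of the list was 797 to 803 on the WT LSK FLT3- arrays and 787 to 884 on the WT LMPP arrays. The defining markers Cdh5, Plvap, Cldn5, Stab2 and Fabp4 averaged 3.32 to 4.85 in the 3 groups. Plvap and Cldn5 lay above the array median on all 6 arrays. Cdh5 lay under it on all 6, Fabp4 on 5 and Stab2 on 2. Plvap alone passed, higher by 0.46 in WT LMPP (adjusted p = 0.0444). Vwf, made by endothelium and by platelet-forming cells, fell by 2.86, Ecscr fell by 0.68 and the transcription factor gene Sox17 rose by 0.85 in the low range. In E2A-KO LMPP the summed intensity was 625 to 630. The sum is of linear intensities, and Egfl7, the brightest gene of the list in each group, weighs most in it. In the knockout 2 of the 21 fell, beside 0.995% of all genes. Robo4, a guidance receptor of vessels and stem cells, went from 5.55 and 5.58 to 4.10 and 4.14 (-1.44, SE 0.14, adjusted p = 0.00176). Egfl7, a secreted vessel factor, went from 8.48 and 8.02 to 7.10 and 7.26 (-1.07, SE 0.17, adjusted p = 0.0194). Robo4 kept its call under all 13 alternatives, whereas Egfl7 lost it in 6. Among these were the 4 LMPP arrays alone, a fit that leaving out 1 LSK FLT3- array repeats. The others were removals of any 1 LMPP array except WT LMPP replicate 2.

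Markers of other cells of the marrow, which the lineage, SCA1 and KIT gate selects against in varying degree, were also examined, and those of plasma cells, mast cells and megakaryocytes were lower in sum in WT LMPP. Their counts stand beside 23.7% of all genes lower and 10.4% higher between the wild-type fractions, and 0.995% and 0.379% between the LMPP genotypes. Plasma cell genes summed to 2902 to 2946 on the WT LSK FLT3- arrays and 1100 to 1150 on the WT LMPP arrays. Of the 8 genes, 3 were lower, namely Igha (-5.79), Jchain (-4.77) and Xbp1 (-0.80). Xbp1, the brightest plasma cell gene in each group, weighs most in this sum, at means of 10.45 in WT LSK FLT3- and 9.66 in WT LMPP. Igha and Jchain averaged 4.26 and 3.17 in WT LMPP. Sdc1 (CD138) rose by 1.54, and Tnfrsf17, under the median on every array, did not pass (0.20). Mast cell and basophil genes summed to 316 to 329 against 97.4 to 109, with 3 of 8 lower, namely Cpa3 (-3.74), Mcpt8 (-2.12) and Ms4a2 (-1.64), and with Tpsab1 higher (0.55) and Tpsb2 at 0.04. Megakaryocyte genes summed to 300.3 to 308 against 155 to 164, with 5 of 9 lower, including Pf4 (-2.47), Gp5 (-1.18), Ppbp (-0.83) and Gp9 (-0.64). Stroma genes summed to overlapping values, 397 to 423 against 393 to 417, with Col1a2 lower (-1.78), Lepr (0.57) and Kitl (0.39) higher, and the defining markers Cxcl12 and Col1a1 at -0.05 and 0.14; the call for Lepr was lost under 5 of 12 alternatives (adjusted p up to 0.135), namely the mean of its probe sets, quantile normalization, and without WT LMPP replicate 1 or any 1 LSK FLT3- array. The part of these cells in the marker falls was not tested. Between the LMPP genotypes 1 plasma cell gene, Sdc1, rose (0.94) and 1 stroma gene, Pdgfrb, fell (-1.15, a call lost without E2A-KO LMPP replicate 2, adjusted p = 0.0555). The call for Sdc1 was lost when E2A-KO LMPP replicate 2 or WT LMPP replicate 1 was left out. It was also lost on the 4 LMPP arrays alone, a fit that leaving out 1 LSK FLT3- array repeats. Stroma genes summed to 269 to 284 in E2A-KO LMPP. Pdgfrb, the brightest of them in each group, weighs most in this sum, and it averaged 7.90 in WT LMPP and 6.75 in the knockout. Of the 9 megakaryocyte and 8 mast cell genes 0 passed, with 1 and 3 at an unadjusted p under 0.05, all higher, where 5.89% of all genes were.

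For each marker the 2 genes with the most similar profile were found as those with the smallest Euclidean distance over the 6 arrays, after centring each gene on its mean; this is a description with no test. Pdzk1ip1 was closest to Gata2 (0.33) and Col4a2 (0.34) in log2 units, Angpt1 to Gata1 (0.20) and Mllt3 (0.22), and Procr to Col4a2 (0.24) and Plxdc2 (0.27). Tek was closest to Myh10 (0.39) and Pgap4 (0.43), and Esam to Tnfaip2 (0.31) and Pkia (0.34). For Slamf1 these were Zfp267 (0.16) and Col1a2 (0.24), and for Ctnnal1 Cadps2 and Ublcp1 (0.28 each). Cd34 had its nearest profiles in Tmpo and Man1c1 (0.06 each). Cd48 was nearest Jdp2 (0.13) and Inka1 (0.15), and Fgd5 was nearest Fdft1 (0.16) and Pde4dip (0.26). All 6 arrays entered the distances, so changes of these genes that resemble those of the marker follow from the choice. Among the markers themselves the nearest were Esam and Pdzk1ip1 (0.46) and Procr and Esam (0.49), and the farthest Cd34 and Tek (4.07).

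The genes beside a marker on its chromosome did not all share its change between the wild-type fractions, where 23.7% of all genes fell. Slamf1 and Cd48 lie beside each other and both fell, Cd84 beside Slamf1 fell, and Slamf7 beside Cd48 rose, as given above. Of the measured neighbours of Tek (Lrrc19 and Eqtn), Esam (Msantd2 and Vsig2), Angpt1 (Abra and Rspo2) and Cd34 (Plxna2 and A330023F24Rik), none passed in either comparison. Pdzk1ip1 lay beside Tal1, a transcription factor gene of stem cells, which fell by 1.19 (adjusted p = 0.000477) toward WT LMPP, and on its other side beside Cyp4x1, which did not pass (0.03). Procr followed Edem2 (-0.71, adjusted p = 0.0102), Ctnnal1 followed Abitram (-0.82, adjusted p = 0.00257) and Fgd5 followed Ccdc174 (-0.41, adjusted p = 0.0367), while on their other sides Mmp24, Tmem245 and Nr2c2 did not pass. Neighbours were taken in gene order among the genes measured here.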

How the data were processed

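RNA of 6 samples was measured on Affymetrix arrays, 2 per group. Per the labels' protocols the RNA was amplified before hybridization, which weights signal to transcript 3′ ends. The deposited table holds linear intensities per probe set, which per the submitters' processing notes the authors obtained by RMA. This method corrects background, normalizes arrays to each other and summarizes probes; the sources used here do not say whether all 6 arrays were normalized together. RMA brings the distributions of arrays normalized together close to each other, which can hide a shift shared by most genes. In the deposited values the upper quartiles still differed between the LSK FLT3- and the LMPP arrays, as given above. Here log2 of the deposited intensities was taken with no pseudocount, and groups were assigned from the sample titles.

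Probe sets naming 1 symbol (34958 of 45101) were reduced to the one with the highest mean per gene, giving 18194 genes. A mean per group was fitted over all 6 arrays with limma 3.58.1 (R 4.3.3; lmFit and eBayes, 3 residual and 5.80 prior degrees of freedom), so the 3 groups share one estimate of spread. Tests were two-sided, with Benjamini-Hochberg adjustment over all genes and a threshold of 0.05. The number of arrays limits the precision. The fit was tested on simulated data.

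The members and the lists were chosen with earlier results of these data known, and gene lists carry no test of their own. The text names all members, and of each list the genes that a rule picked: those with the largest changes among calls and, in the knockout comparison, the largest difference where none was called. For other cell types these were the defining markers and the largest changes. Kdr, Flt1, Flt4, Ecscr, Xbp1, Ms4a2, Tpsab1, Ppbp, Gp9, Kitl and the chromosomal neighbours lie outside the rule and were named after their values were seen. Upstream sequences are from RefSeq (GRCm38.p6) and were matched by symbol.

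Alternatives were a replicate block, a filter on dim genes, the mean of all probe sets, quantile normalization, median centring, a variance trend with robust moderation, single comparisons, other thresholds and leaving out each array. Testing every probe set as a unit was added after seeing the data.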

Additional observations from a re-analysis of the deposited data

How the results depend on the processing

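Of the 9 falls and 1 rise between the wild-type fractions, those of Tek, Pdzk1ip1, Esam, Procr, Angpt1, Ctnnal1 and Slamf1 kept their direction and call under every alternative run that held the gene (the filter on dim genes removed Tek and Slamf1); Cd34, Cd48 and Fgd5 did not, as given above. When their probe sets were averaged the change shrank to -0.70 for Slamf1 and -0.83 for Ctnnal1. Members called ran from 7 to 10 over the fits that left out 1 array. Counts over all genes moved more. Between the wild-type fractions 6198 genes became 3496 after quantile normalization, 1214 with a minimum change of 2-fold and 2370 to 6410 without 1 array. Between the LMPP genotypes 250 became 548 with a variance trend, 89 on 4 arrays, 508 at an adjusted p under 0.1, 123 at 2-fold or more and 89 to 164 without 1 array. The single member called there became 0 with the replicate block, quantile normalization, 4 arrays, a 2-fold minimum or every probe set as a unit, and 0 to 1 without 1 array, the 1 being Fgd5. Between E2A-KO LMPP and WT LSK FLT3-, 6822 became 3617 after quantile normalization, 1358 at 2-fold and 2944 to 7515 without 1 array. Fits without 1 array assume that the lone array varies like the other groups. Where the lone array belongs to the group outside a comparison, the fit repeats that on the 4 arrays of the comparison and is no separate alternative. The causes were not tested.

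Correlations of the replicate differences between groups were -0.02, -0.04 and 0.02, so no pairing by replicate number was seen across genes. These values cannot settle whether arrays of the same number were prepared together. With the number as a block, 9 members and 5914 genes were called between the wild-type fractions, where Cd48 was lost (adjusted p = 0.0589), 0 and 200 between the genotypes (Cd48, adjusted p = 0.0736), and 9 and 6535 between E2A-KO LMPP and WT LSK FLT3-, where Cd34 was lost (adjusted p = 0.0507). Among the related genes named, the block also ended the calls of Adgrg1 (adjusted p = 0.0573) and Thy1 (0.0628) between the genotypes and of Spn (0.0635) between the wild-type fractions.

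Changes of sign were seen for uncalled differences between the genotypes. Pdzk1ip1 went from 0.00 to -0.12 with the mean of its probe sets, to -0.028 with quantile normalization and -0.029 with median centring, and over the fits without 1 array it ran from -0.094 to 0.096. Over those fits Esam ran from -0.22 to 0.062, Angpt1 from -0.0062 to 0.26 and Cd34 from -0.12 to 0.017. For the other probe sets, 1 probe set per gene gives no value, and the motif search has no second setting.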
